A study of Mus musculus with 12 samples.

Results

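A list of 54 genes of DNA replication and cell division was followed across 4 fibroblast populations sorted from newborn mouse skin. The list holds 27 genes that act in S phase, when DNA is copied, and 27 genes that act in G2 and mitosis (G2/M), when the copies are separated. Of these, 25 genes of each phase were measured, 50 in all, among 17097 genes of the array. Cdca7, Nasp, Nuf2 and Ccnb1 had no probe set with a gene symbol of their own and were not analysed here. Where several probe sets read a gene, the brightest on average over all 12 arrays stood for it, whatever its difference between populations.

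The cells came from the dermis of 3 female littermates aged 2 days, with no strain, transgene or treatment named. Every population was gated as lineage negative (CD45, CD117, CD31 and EpCam) and as positive for Pdgfra and CD34. Papillary fibroblasts, of the upper dermis, were CD26+ Dlk1- Sca1-, and reticular fibroblasts, of the lower dermis, were CD26- Dlk1+ Sca1-. The labels call the other 2 populations pre-adipogenic, and they were CD26- Dlk1+ Sca1+ and CD26- Dlk1- Sca1+, called Dlk1+ Sca1+ and Dlk1- Sca1+ below. Each population has 3 arrays, numbered 1 to 3 in the labels, and equal numbers were taken as the same littermate. The RNA of 4500 cells per array was amplified over 21 cycles before it was labelled. The cells were not sorted by DNA content, and a level below is an average over all cells of a gate.

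A cell prepares to copy its DNA by loading the MCM helicase on replication origins, a step called licensing, and it makes nucleotides and histones as the copying goes on. Transcription of these genes is driven by E2F factors, which pocket proteins such as Rb1 hold in check until cyclin-dependent kinases (CDKs) release them. Genes of mitosis are switched on later and are regulated through a promoter element called the cell cycle genes homology region (CHR). It is bound by the DREAM and MYB-MuvB complexes, often beside CCAAT boxes bound by NF-Y. In newborn dermis the fibroblasts still divide, and division slows as the skin matures.

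Transcripts of the gating proteins were read first. Dpp4, which encodes CD26, had a log2 level of 10.61 ± 0.40 (SD, n = 3) in papillary cells and means of 6.26 to 6.37 in the others. Dlk1 had means of 12.97 in reticular and 12.86 in Dlk1+ Sca1+ cells, against 11.39 in Dlk1- Sca1+ and 9.97 in papillary cells, so its transcript did not vanish in cells gated as Dlk1-. The transcript of Sca1 was not analysed here. Of the genes gated out, Ptprc (CD45) had means of 3.88 to 3.94, while Pecam1 (CD31) had a mean of 7.02 in papillary cells, below 7.71 in reticular cells and 8.15 and 7.68 in the Dlk1+ Sca1+ and Dlk1- Sca1+ populations. Epcam had means from 5.78 in papillary to 6.89 in Dlk1- Sca1+ cells, the last with an SD of 1.50. Summed over 10 fibroblast markers the log2 level lay between 15.33 and 15.49 on all 12 arrays. Single markers of this list differed more, from -1.17 to 0.83 in the papillary minus reticular means. Arrays of 1 population correlated over genes at r = 0.989 to 0.995, and arrays of different populations at 0.948 to 0.990.

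The promoters of the 2 phases differed in the short motifs they hold. RefSeq windows of 300 bases (GRCm38.p6, 250 bases before to 50 after the start) were found for 47 of the 54 members, 23 of S phase and 24 of G2/M. An E2F motif was searched on both strands in the form TTCCCGC, in the form TTGGCGC, in the form TTCGCGC and in the form TTGCCGC. It was in 16 of the 23 S phase windows (69.6%) and 4 of the 24 G2/M windows (16.7%), against 14.2% of the windows of all genes tested. A CHR motif was searched on both strands in the form TTTGAA and in the form TTCGAA. It was in 5 S phase windows (21.7%) and 19 G2/M windows (79.2%), against 15.0% of all genes tested. The CCAAT box, on both strands, was common to both, in 73.9% of S phase and 79.2% of G2/M windows against 38.4%. A match is a description of letters and says nothing of binding in these cells.

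**Figure D1:**
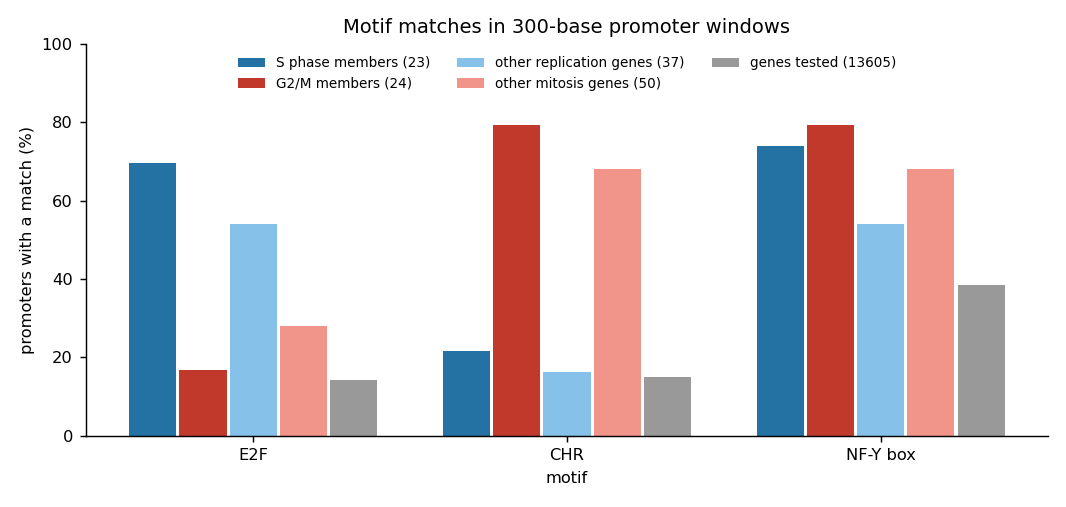
Share of promoters with at least 1 match, in percent, for the E2F motif, the CHR motif and the CCAAT (NF-Y) box in RefSeq windows of 300 bases. Bars are the 2 phases, 2 further lists and all genes tested, with the number of promoters in brackets. The E2F bar is highest for S phase members (69.6%) and the CHR bar is highest for G2/M members (79.2%).

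The E2F matches of the 5 S phase members with the largest papillary difference and a match are shown first, to set the site beside the values below. Capitals mark the motif as it reads on the gene's strand, 5′ to 3′, where a match on the opposite strand appears as the reverse complement. The stretches are E2f8 at chr7:48881690-48881718 (minus strand), Cdc6 at chr11:98908002-98908030 (plus), Mcm5 at chr8:75109349-75109377 (plus), Rrm2 at chr12:24708008-24708036 (plus) and Uhrf1 at chr17:56303278-56303306 (plus).
E2f8: agaggcgcggaTTGGCGCgcggggccccg
Cdc6: gccggtggagaGCGGGAAatcgcctgggg
Mcm5: caagaactttcGCGCCAAaacgtccagcc
Rrm2: caccaacctcaGCGGCAAcgcccgcccgg
Uhrf1: tgctttctcgcTTCCCGCcacagcgccag

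The CHR matches of the 5 G2/M members chosen in the same way are shown for comparison. Counted from the start of the gene, the first base of the match is at 8 in Ttk, -19 in Kif11, 3 in Cenpf, -98 in Mki67 (the nearest of 2 matches) and 17 in Cenpa, against -111 in E2f8, -138 in Cdc6, -149 in Mcm5 (the nearest of 3), -235 in Rrm2 and -48 in Uhrf1 for the E2F matches above. The stretches are Ttk at chr9:83834685-83834712 (plus), Kif11 at chr19:37376352-37376379 (plus), Cenpf at chr1:189688068-189688095 (minus), Mki67 at chr7:135716461-135716488 (minus) and Cenpa at chr5:30666891-30666918 (plus), with the motif in capitals.
Ttk: agcggggaaatTTCAAAcgtgtttccgg
Kif11: cgtctccatttTTCAAAattgaggcgcg
Cenpf: gcggcgggcagTTTGAAtcgctcgtgct
Mki67: cgccgttttggTTTGAAtcgggcgggct
Cenpa: gcgggtgatttTTTGAActgctggcgac

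A whole window of each phase shows the layout. That of E2f8, an E2F family repressor, is chr7:48881547-48881846 (minus strand), and its E2F match begins at position -111 and overlaps a CCAAT box on the opposite strand, so that both are in 1 run of capitals. It also holds a CHR match, left in lower case, at -20. That of Ttk, a kinase of the spindle checkpoint, is chr9:83834439-83834738 (plus strand), with CCAAT boxes at -65 and -28 and the CHR match at 8, all in capitals.
E2f8: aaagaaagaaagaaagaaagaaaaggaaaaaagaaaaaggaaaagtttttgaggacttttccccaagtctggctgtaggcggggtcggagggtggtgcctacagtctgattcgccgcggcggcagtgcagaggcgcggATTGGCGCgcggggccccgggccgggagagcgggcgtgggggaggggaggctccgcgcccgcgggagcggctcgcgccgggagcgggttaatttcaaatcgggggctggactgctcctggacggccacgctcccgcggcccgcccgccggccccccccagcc
Ttk: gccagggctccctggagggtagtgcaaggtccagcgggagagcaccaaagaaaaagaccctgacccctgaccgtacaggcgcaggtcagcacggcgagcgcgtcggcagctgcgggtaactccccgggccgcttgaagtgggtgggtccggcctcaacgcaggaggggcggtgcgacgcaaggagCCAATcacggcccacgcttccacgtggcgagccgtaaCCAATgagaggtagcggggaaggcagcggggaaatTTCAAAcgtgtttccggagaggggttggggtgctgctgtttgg

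Both phases had their highest levels in papillary cells, and the G2/M members stood further apart than the S phase members. Taken as the median over members of log2 value minus the gene's own mean over the 12 arrays, the S phase level was 0.33, 0.35 and 0.34 in the papillary arrays of littermates 1, 2 and 3. In the 9 other arrays it ran from -0.31 to -0.01, so the groups did not overlap. The G2/M level was 0.61, 0.94 and 0.97 in papillary arrays and ran from -0.73 to -0.08 in the others. Within littermates 1, 2 and 3 the papillary array exceeded the mean of the other populations by 0.46, 0.45 and 0.43 for S phase and by 0.98, 1.20 and 1.17 for G2/M. The G2/M level exceeded the S phase level by 0.28, 0.59 and 0.62 in papillary arrays, and it lay between 0.43 below and 0.01 above the S phase level elsewhere. As each gene is centred on its own mean, this restates the larger G2/M difference and does not rank the phases by abundance. Without centring, the median S phase log2 level was above that of G2/M on every array (8.13, 8.28 and 8.06 against 7.76, 8.10 and 7.97 in papillary arrays). These are descriptions of chosen genes and carry no test. In RNA of whole gates, fewer cells of a phase and less RNA per cell cannot be told apart.

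**Figure D2:**
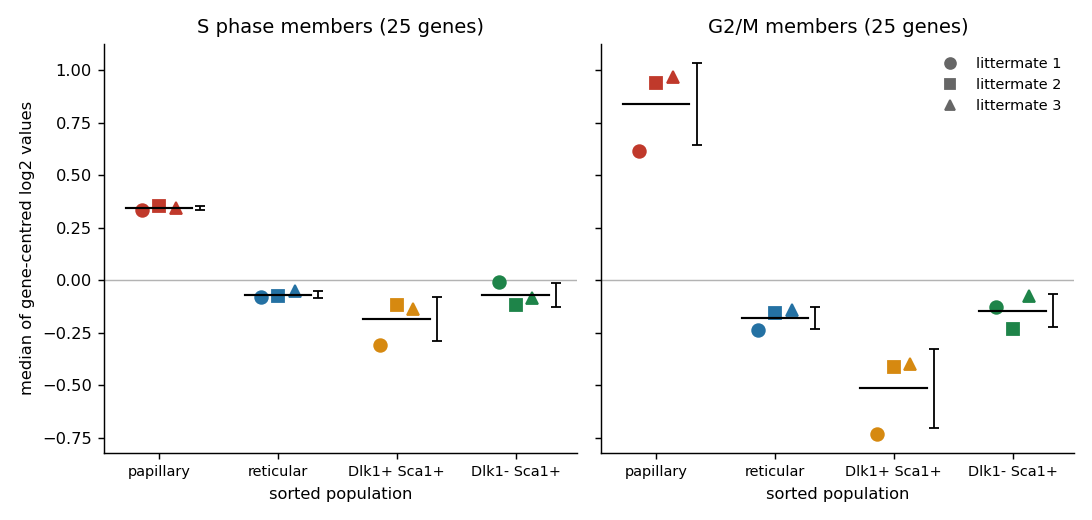
Phase level of each array (median over 25 genes of log2 value minus the gene's mean over 12 arrays) by sorted population, S phase on the left and G2/M on the right. Symbols are littermates, lines are means and bars are the SD (n = 3). Papillary arrays lie at 0.33 to 0.35 for S phase and at 0.61 to 0.97 for G2/M, above all other arrays, and the Dlk1+ Sca1+ arrays are lowest for G2/M.

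The G2/M genes rose in papillary cells almost without exception. Against reticular cells all 25 measured members were called higher, where 13.9% of all genes were, at an adjusted p under 0.05 in limma with Benjamini-Hochberg adjustment over all genes. Against Dlk1+ Sca1+ cells all 25 were called higher (14.1% of all genes), and against Dlk1- Sca1+ cells 24 were (13.1% of all genes). The median log2 differences were 1.06, 1.34 and 0.97, where the medians of all genes were -0.01, 0.00 and 0.00. These 3 comparisons share the papillary arrays and are not independent of each other. In 24 of the 25 genes every papillary array lay above the other 9, a pattern of 10.7% of all genes. The same number, all but Cenpe, were called higher in all 3 comparisons, as 7.97% of all genes were.

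Among the kinases and cyclins that start mitosis, Ccna2 had the largest papillary difference. Cyclin A2, its product, partners Cdk1 and Cdk2 from S phase into mitosis. The log2 level was 10.19, 10.57 and 10.46 in papillary arrays, 8.87, 8.89 and 9.00 in reticular, 8.41, 8.63 and 8.67 in Dlk1+ Sca1+ and 8.81, 8.69 and 9.05 in Dlk1- Sca1+ arrays. Papillary values stood clear of all others by more than 1 log2 unit, and the 9 others lay close together. The papillary difference was 1.49 ± 0.12 (SE) from reticular (2.80-fold, limma adjusted p = 7.38e-07), 1.84 ± 0.12 from Dlk1+ Sca1+ (adjusted p = 7.10e-08) and 1.56 ± 0.12 from Dlk1- Sca1+ cells (adjusted p = 3.72e-07).

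Aurkb, the kinase of the chromosomal passenger complex that corrects chromosome attachment, had log2 values of 8.40, 8.82 and 8.76 in papillary arrays and of 6.60 to 7.53 in the others. Its papillary difference was 1.36 ± 0.15 from reticular, 1.82 ± 0.15 from Dlk1+ Sca1+ and 1.34 ± 0.15 from Dlk1- Sca1+ cells (limma adjusted p = 1.59e-05, 9.19e-07 and 1.70e-05). The groups did not overlap. Birc5, the survivin subunit of the same complex, differed by 1.06, 1.34 and 1.05 in the same order, and Cdk1, the kinase that drives entry into mitosis, by 1.10, 1.54 and 1.29. Plk1, a kinase of centrosome maturation and mitotic exit, had the smallest difference of the phase from the mean of the other populations (0.55). Its log2 values were 7.76, 8.12 and 7.97 in papillary arrays and 7.16 to 7.53 elsewhere, which gave 0.54 ± 0.10, 0.64 ± 0.10 and 0.47 ± 0.10 (adjusted p = 0.00129, 0.000331 and 0.00345). The call against Dlk1- Sca1+ cells was lost without all arrays of littermate 2 (adjusted p = 0.0535) or 3 (adjusted p = 0.0528). Even at this smaller difference the 3 papillary values lay above the 9 others.

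Motors and spindle proteins were also highest in papillary cells. Kif11, the kinesin that pushes spindle poles apart, had log2 values of 8.50, 9.06 and 8.97 in papillary arrays, 7.42 to 7.54 in reticular, 6.89 to 7.09 in Dlk1+ Sca1+ and 7.16 to 7.58 in Dlk1- Sca1+ arrays. The papillary difference was 1.37 ± 0.14, 1.83 ± 0.14 and 1.44 ± 0.14 from the 3 in that order (limma adjusted p = 8.15e-06, 4.37e-07 and 4.22e-06). Nusap1, which bundles spindle microtubules, had log2 values of 7.40, 7.63 and 7.57 in papillary, 6.17, 6.08 and 6.19 in reticular, 5.46, 5.77 and 5.89 in Dlk1+ Sca1+ and 6.27, 6.10 and 6.27 in Dlk1- Sca1+ arrays. Its differences were 1.39 ± 0.11, 1.83 ± 0.11 and 1.32 ± 0.11 (adjusted p = 6.46e-07, 3.49e-08 and 8.10e-07). In both genes all papillary arrays lay above the other 9 and all Dlk1+ Sca1+ arrays lay below the other 9. Hmmr, a microtubule-binding protein of the spindle, differed by 0.58, 0.66 and 0.64, and its call against reticular cells was lost without the papillary or reticular array of littermate 3 (adjusted p = 0.053 to 0.066). Ckap2l, a spindle pole protein, was at the low end with 7.41, 7.71 and 7.43 in papillary arrays against 6.68 to 7.10 elsewhere, and differences of 0.53 ± 0.12, 0.68 ± 0.12 and 0.54 ± 0.12 (adjusted p = 0.00364, 0.00052 and 0.0031).

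The checkpoint and anaphase genes Ttk, Bub1, Bub1b, Ube2c and Cdc20 were called higher in all 3 papillary comparisons. Ttk had log2 values of 7.50, 8.09 and 7.92 in papillary arrays, 6.25, 6.28 and 6.48 in reticular, 5.67, 6.12 and 6.27 in Dlk1+ Sca1+ and 6.55, 6.30 and 6.68 in Dlk1- Sca1+ arrays. Every papillary array lay above every other array. The differences were 1.50 ± 0.17, 1.82 ± 0.17 and 1.33 ± 0.17 (limma adjusted p = 2.07e-05, 3.00e-06 and 5.63e-05). Of the kinetochore genes, which tie chromosomes to the spindle, Cenpf, Cenpa and Ndc80 were called in all 3 comparisons.

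Cenpe, a kinetochore motor, was the 1 G2/M gene that missed a call. It had log2 values of 6.73, 7.26 and 7.32 in papillary and 6.59, 6.37 and 6.74 in Dlk1- Sca1+ arrays, so that the papillary array of littermate 1 overlapped the second group. The difference was 0.54 ± 0.19 (limma adjusted p = 0.0525), and it passed with the littermate as a replicate block (adjusted p = 0.00735). Against reticular cells it was 0.70 ± 0.19 (adjusted p = 0.0127), a call lost without the papillary array of littermate 2 or 3 or the reticular array of littermate 1 (adjusted p = 0.0541 to 0.0584). Against Dlk1+ Sca1+ cells it was 0.79 ± 0.19 (adjusted p = 0.00625), a call lost without all arrays of littermate 2 (adjusted p = 0.0642). The missed call also passed with arrays centred on their medians (adjusted p = 0.0364). A second, dimmer probe set of Cenpe (mean log2 level 6.04) was called higher in all 3 comparisons, by 1.73, 2.16 and 1.69, in a limma fit over all probe sets (adjusted p = 4.66e-06, 4.73e-07 and 4.93e-06), so the missed call holds for the probe set used.

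**Figure D3:**
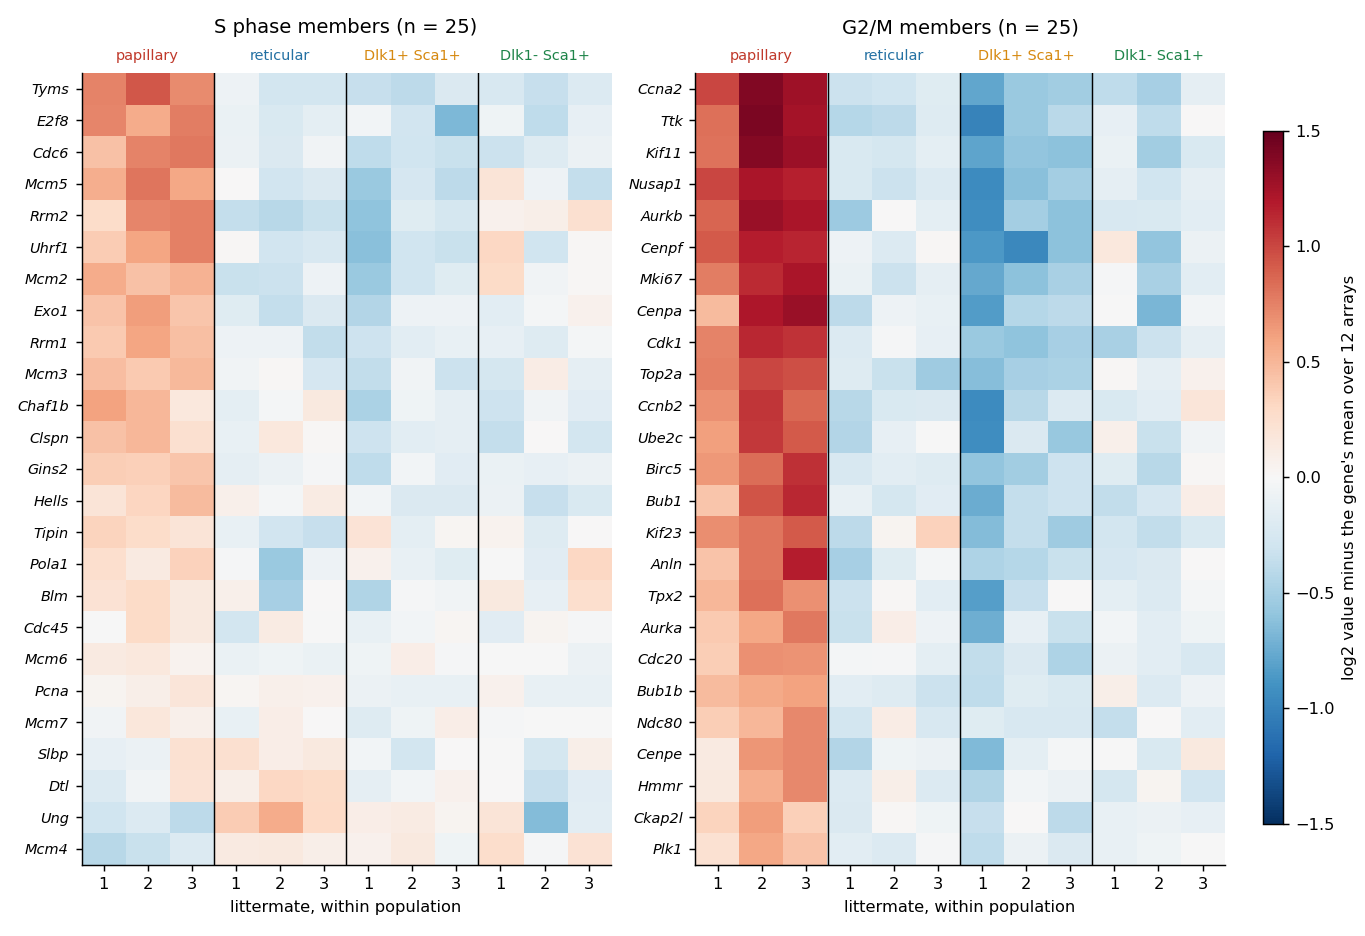
Log2 value minus the gene's mean over the 12 arrays (colour, -1.5 to 1.5) for the 25 measured members of each phase, in rows ordered by the papillary minus mean-of-the-others difference, with arrays in columns by population and littermate. The G2/M block is red throughout the papillary columns and bluest in the Dlk1+ Sca1+ columns, while the lowest S phase rows, among them Ung and Mcm4, show little or opposite colour in papillary columns.

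The S phase genes rose in papillary cells too, but by less and with exceptions. Of the 25 measured, 16 were called higher and 2 lower than in reticular cells (all genes 13.9% and 13.6%). Against Dlk1+ Sca1+ cells 15 were called higher and 1 lower (all genes 14.1% and 13.9%). Against Dlk1- Sca1+ cells 15 were called higher and 1 lower (all genes 13.1% and 13.3%). Their median differences were 0.46, 0.58 and 0.45. Against the mean of the other 3 populations the median was 0.51 (from -0.43 to 1.06) for S phase and 1.15 (from 0.55 to 1.63) for G2/M, and the quantity exceeded 1 for 1 S phase member and 16 G2/M members (2.626% of all genes). In 14 of the 25 S phase genes every papillary array lay above the other 9 (10.7% of all genes), and 13 were called higher in all 3 comparisons (7.97% of all genes).

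The genes of nucleotide supply had a median difference of 0.78 from the mean of the other populations, and all 3 were called in all 3 comparisons. Tyms, thymidylate synthase, had log2 values of 9.70, 9.88 and 9.66 in papillary arrays, 8.87, 8.67 and 8.68 in reticular, 8.61, 8.56 and 8.73 in Dlk1+ Sca1+ and 8.71, 8.60 and 8.74 in Dlk1- Sca1+ arrays. The other populations lay together below all papillary arrays. The differences were 1.01 ± 0.09, 1.11 ± 0.09 and 1.06 ± 0.09 (limma adjusted p = 1.79e-06, 5.19e-07 and 8.68e-07). This S phase member with the largest difference held no match to any of the 3 motifs in its window.

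Rrm2, the regulated subunit of ribonucleotide reductase, had log2 values of 9.21, 9.67 and 9.69 in papillary, 8.58, 8.52 and 8.60 in reticular, 8.33, 8.76 and 8.67 in Dlk1+ Sca1+ and 9.00, 9.03 and 9.18 in Dlk1- Sca1+ arrays. Here the Dlk1- Sca1+ arrays stood between papillary and the others without overlap. The papillary difference was 0.96 ± 0.13 from reticular, 0.94 ± 0.13 from Dlk1+ Sca1+ and 0.45 ± 0.13 from Dlk1- Sca1+ cells (limma adjusted p = 0.000121, 0.00013 and 0.0231). The last call was lost without the papillary array of littermate 2 or 3 or the Dlk1- Sca1+ array of littermate 1 or 2 (adjusted p = 0.0646 to 0.0982). Its partner Rrm1 differed by 0.65, 0.68 and 0.60.

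The licensing and helicase genes did not move as 1 group. Cdc6, which loads the helicase on origins, had log2 values of 5.52, 5.83 and 5.87 in papillary arrays and 4.70 to 5.03 in the others, and differed by 0.78 ± 0.10, 1.00 ± 0.10 and 0.86 ± 0.10 (limma adjusted p = 5.30e-05, 4.76e-06 and 2.11e-05). Mcm5, a helicase subunit, had log2 values of 9.75, 10.01 and 9.78 in papillary arrays and 8.65 to 9.39 in the others, and differed by 0.81 ± 0.14, 1.04 ± 0.14 and 0.73 ± 0.14 (adjusted p = 0.000537, 6.03e-05 and 0.00127). In neither gene did papillary values overlap with the rest. Mcm2 and Mcm3, further subunits, and Gins2, of the active helicase, were also called higher in all 3 comparisons, though Mcm2 lost its call against Dlk1- Sca1+ cells without the papillary array of littermate 1 or the Dlk1- Sca1+ array of littermate 2 or 3 (adjusted p = 0.0588 to 0.0695). A dimmer probe set of Mcm3 (mean log2 level 6.24) gave 0.05, 0.08 and 0.11 without a call, so its calls hold for the probe set used. The helicase subunits Mcm6 and Mcm7 were nearly flat, with papillary differences of 0.20, 0.11 and 0.15 for Mcm6 and 0.07, 0.12 and 0.08 for Mcm7. A second probe set of Mcm7, slightly dimmer, gave 0.19, 0.49 and 0.31 and was called higher against Dlk1+ Sca1+ cells in a limma fit over all probe sets (adjusted p = 0.024). On the probe sets used, only the Mcm6 difference from reticular cells passed the test (adjusted p = 0.0445), and it was lost without any 1 of 9 of the 12 arrays (adjusted p up to 0.144). The arrays that kept it were that of papillary littermate 3 and those of Dlk1+ Sca1+ littermates 1 and 2.

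Mcm4, another subunit of the same ring, went the other way. It had log2 values of 7.84, 7.92 and 8.05 in papillary arrays, 8.39, 8.40 and 8.34 in reticular, 8.32, 8.40 and 8.19 in Dlk1+ Sca1+ and 8.52, 8.24 and 8.47 in Dlk1- Sca1+ arrays. All papillary arrays lay below the other 9, as in 9.88% of all genes, and no other member had this pattern. It was also the 1 member called lower in all 3 comparisons (7.29% of all genes). The papillary difference was -0.44 ± 0.09, -0.37 ± 0.09 and -0.47 ± 0.09 (limma adjusted p = 0.00242, 0.00794 and 0.00151). Without all arrays of littermate 1 the last 2 missed the threshold (adjusted p = 0.0897 and 0.0501), and without those of littermate 2 the second did (adjusted p = 0.0816). Mcm4 has 1 probe set with its symbol, so no second probe set was there to compare.

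At the fork and in repair the differences were smaller. Of the fork genes, Clspn, a checkpoint adaptor, was called in all 3 papillary comparisons (0.37, 0.59 and 0.60), with the call against reticular cells lost without the papillary array of littermate 1 or 2 or the reticular array of littermate 1 or 3 (adjusted p = 0.0543 to 0.0862). Pcna, the sliding clamp, differed by 0.05, 0.21 and 0.16 and passed only against Dlk1+ Sca1+ cells (adjusted p = 0.0448), a call lost without any 1 of 10 of the 12 arrays, those of reticular littermate 1 and Dlk1- Sca1+ littermate 1 excepted (adjusted p up to 0.161). Pola1, of the polymerase that starts new strands, passed only against reticular cells (0.46), a call lost without the papillary array of littermate 1 or 3 or the reticular array of littermate 2 (adjusted p = 0.0872 to 0.15). Dtl, which marks proteins for destruction on the clamp, differed by -0.24, 0.02 and 0.16 with no call. Exo1, a repair nuclease, was called in all 3 comparisons (0.74, 0.68 and 0.53), and the helicase Blm in none (0.36, 0.39 and 0.13).

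Ung, the glycosylase that removes uracil from DNA, was lower in papillary than in reticular cells. Its log2 values were 7.50, 7.59 and 7.40 in papillary arrays, 8.18, 8.35 and 8.09 in reticular, 7.90, 7.92 and 7.84 in Dlk1+ Sca1+ and 7.99, 7.15 and 7.64 in Dlk1- Sca1+ arrays. The Dlk1- Sca1+ arrays spread most and overlapped the papillary arrays, while the reticular arrays were all above them. The difference was -0.71 ± 0.16 from reticular cells (limma adjusted p = 0.00427, and 0.0668 without all arrays of littermate 3), and it was -0.39 and -0.10 from the other 2, without a call.

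Chromatin genes were mixed. Uhrf1, which carries DNA methylation over to new strands, differed by 0.75, 1.00 and 0.57, and Chaf1b, of the histone chaperone CAF-1, by 0.43, 0.64 and 0.60, both called in all 3. The call of Uhrf1 against Dlk1- Sca1+ cells was lost without the Dlk1- Sca1+ array of littermate 2 (adjusted p = 0.06) or the papillary array of littermate 3 (adjusted p = 0.0618). That of Chaf1b against reticular cells was lost without the papillary or reticular array of littermate 1 or 2 (adjusted p up to 0.139). Slbp, which binds the tail of histone mRNA, differed little on the probe set used (-0.16, 0.11 and 0.07, no call). A dimmer probe set of Slbp (mean log2 level 8.18) gave 0.51, 1.08 and 0.73 and was called higher against both Sca1+ populations in a limma fit over all probe sets (adjusted p = 0.000851 and 0.0125). E2f8, the repressor of E2F targets, had log2 values of 6.89, 6.71 and 6.92 in papillary arrays and 5.48 to 6.11 elsewhere, and differed by 0.84 ± 0.14, 1.02 ± 0.14 and 0.87 ± 0.14 (limma adjusted p = 0.000429, 7.87e-05 and 0.000318). Its papillary arrays stood clear of all others.

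**Figure D4:**
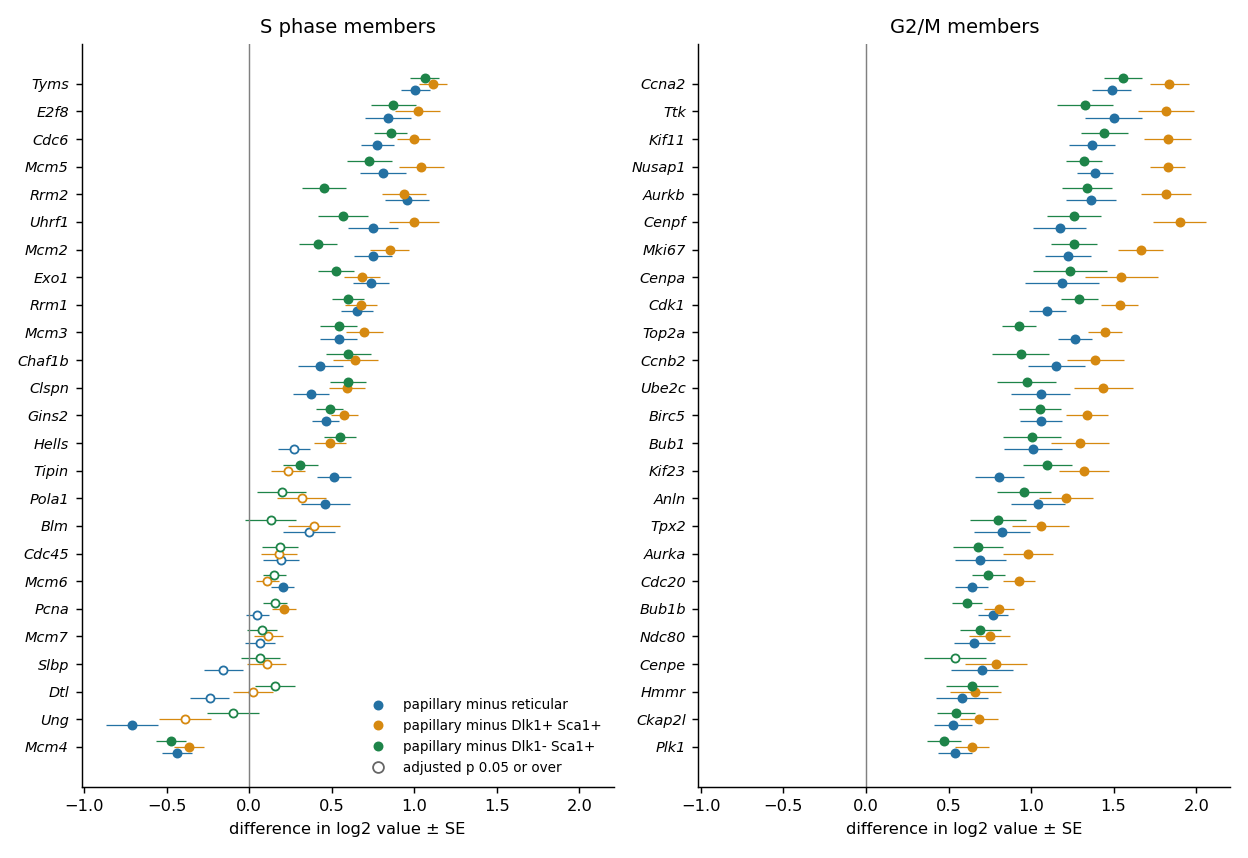
Papillary minus reticular, Dlk1+ Sca1+ and Dlk1- Sca1+ differences in log2 value with limma's SE for each measured member (n = 3 arrays per population), S phase on the left and G2/M on the right. Filled points have an adjusted p under 0.05 and open points do not. All G2/M points lie above 0, from 0.47 to 1.90, while S phase points run from -0.71 to 1.11.

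Set beside the promoters, the 15 measured S phase members with an E2F match had a median difference of 0.56 from the mean of the other populations (from -0.02 to 0.91). The 6 without one, Mcm2, Pcna, Tyms, Ung, Slbp and Cdc45, had a median of 0.16 and the wider range, from -0.40 to 1.06. Among G2/M members the 19 with a CHR match had a median of 1.10, and the 3 without one, Nusap1, Birc5 and Cenpe, had values with a median of 1.15. With so few genes and no test, these medians are descriptions, and Mcm4, Gins2, Exo1, Tipin, Ccna2, Aurkb and Tpx2 have no window in the table.

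The papillary arrays differed among littermates by phase. In all 25 G2/M members the array of littermate 1 was the lowest of the 3 papillary arrays, as in 40.6% of all genes, while 12 of 25 S phase members had this order. Its median level was 0.61, against 0.94 and 0.97, with nearly equal S phase levels (0.33, 0.35 and 0.34). In Dlk1+ Sca1+ cells the array of the same littermate was also lowest of its 3, in 20 of 25 G2/M members and 16 of 25 S phase members (45.7% of all genes). In reticular cells it was lowest in 15 G2/M and 8 S phase members (48.2% of all genes), and in Dlk1- Sca1+ cells in 7 and 8 (41.2%). The littermate and any handling that its 4 arrays shared cannot be told apart. Without the papillary array of littermate 1, the median papillary differences of the G2/M members were 1.22, 1.48 and 1.15.

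Among the 3 other populations the members differed far less, and the lowest G2/M levels were those of Dlk1+ Sca1+ cells. All 25 G2/M members had their lowest mean there, as 21.5% of all genes did, and 14 of 25 S phase members did. Against reticular cells 3 G2/M members were called lower and 0 higher (4.37% and 4.06% of all genes), with a median of -0.29, and 0 S phase members were called by limma. The median was -0.15 without the Dlk1+ Sca1+ array of littermate 1 and -0.38 without that of littermate 3. At an unadjusted p under 0.05, 9 G2/M members were lower and 0 higher, and 5 S phase members were lower and 1 higher, where 9.53% of all genes were lower and 9.28% higher. With the littermate as a replicate block 6 G2/M members were called lower, the added ones being Aurkb, Ccna2 and Kif23, and 1 S phase member, Tipin, was called higher. The count of 3 became 0 without the reticular array of littermate 3, 1 without the Dlk1+ Sca1+ array of littermate 1 or 2, and 5 without the papillary array of littermate 1 or the Dlk1- Sca1+ array of littermate 2.

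The largest of these was Cenpf, a large kinetochore protein. It had log2 values of 7.55, 7.42 and 7.64 in reticular, 6.76, 6.66 and 7.01 in Dlk1+ Sca1+, 7.78, 7.03 and 7.54 in Dlk1- Sca1+ and 8.55, 8.81 and 8.77 in papillary arrays. The Dlk1+ Sca1+ arrays lay below all others. The difference from reticular cells was -0.73 ± 0.16 (limma adjusted p = 0.0133), with 0.0554 without the Dlk1+ Sca1+ array of littermate 2 and 0.0561 without the reticular array of littermate 3. Nusap1 followed with -0.44 ± 0.11 (adjusted p = 0.023, and 0.0676 to 0.0797 without the Dlk1+ Sca1+ or reticular array of littermate 1 or the reticular array of littermate 3), and Cdk1 with -0.44 ± 0.11 (adjusted p = 0.0289). The Cdk1 call was lost without any 1 of 5 of the 6 arrays compared (adjusted p up to 0.104), the exception being the reticular array of littermate 1. Dimmer probe sets of Cenpf (-0.190 and -0.333) and Nusap1 (-0.050) were not called in a limma fit over all probe sets (adjusted p = 0.137 to 0.878). The calls of these genes thus hold for the probe sets used. Those of Aurkb (-0.687), Kif11 (-0.607) and Tpx2 (-0.483) that were dimmer were called lower in that fit (adjusted p = 0.0269, 0.0473 and 0.0161).

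Dlk1- Sca1+ cells exceeded Dlk1+ Sca1+ cells in 3 G2/M members, with 0 called lower (3.23% and 4.13% of all genes), and in 2 S phase members. At an unadjusted p under 0.05 in limma, 12 G2/M members were higher and 0 lower, where 9.41% of all genes were higher and 9.32% lower. The median difference was 0.28 for G2/M, with all 25 above 0, and 0.08 for S phase. Leaving out arrays moved the G2/M median between 0.20 (without the Dlk1+ Sca1+ array of littermate 1) and 0.39 (without all arrays of littermate 2), and the S phase median was 0.03 without all arrays of littermate 1 and 0.14 without those of littermate 2. With the replicate block 6 G2/M members were called higher, with Aurkb, Ccnb2 and Ttk added. The 3 called were Cenpf (0.64 ± 0.16, limma adjusted p = 0.0283), Top2a (0.52 ± 0.10, adjusted p = 0.00704) and Nusap1 (0.51 ± 0.11, adjusted p = 0.0109). The Cenpf call was lost without the Dlk1- Sca1+ array of littermate 1 or 3 or the Dlk1+ Sca1+ array of littermate 1 or 2 (adjusted p = 0.0943 to 0.109), and the other 2 calls were lost without all arrays of any 1 littermate (adjusted p = 0.0537 to 0.0989) and kept without any single array. The S phase calls, Rrm2 (0.48 ± 0.13, adjusted p = 0.047) and Mcm2 (0.43 ± 0.12, adjusted p = 0.0389), were lost without any 1 of 9 and 7 of the 12 arrays (adjusted p up to 0.176 and 0.161). In a limma fit over all probe sets, a dimmer probe set of Rrm2 was called higher (0.59, adjusted p = 0.00168). A dimmer probe set of Mcm2 was not (0.08, adjusted p = 0.8). Nor were the dimmer probe sets of Cenpf (0.033 and 0.363), Top2a (0.110 and -0.067) and Nusap1 (-0.010) in that fit (adjusted p = 0.106 to 0.978). The G2/M calls thus hold for the probe sets used. A dimmer probe set of Tpx2 was called higher (0.407, adjusted p = 0.043).

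Markers of some other cells moved in the same direction, and those of others did not. All 9 keratinocyte and epithelial genes (median 0.44) and all 5 melanocyte and Schwann cell genes (median 0.51) had higher means in Dlk1- Sca1+ than in Dlk1+ Sca1+ cells. The mean summed log2 level of the mast cell list was also higher there (8.425 against 8.147). It was lower for the endothelial (9.394 against 9.715), immune (9.034 against 9.168) and mural lists (10.036 against 10.112). The skeletal muscle (8.285 against 8.590) and erythroid lists (9.685 against 10.276) were lower too. The Dlk1- Sca1+ array of littermate 1 had the highest summed levels of all 12 arrays for the keratinocyte (13.65), melanocyte and Schwann (10.56) and mast cell (9.25) lists. The Dlk1- Sca1+ arrays of littermates 2 and 3 were at 11.101 and 11.255, 9.194 and 8.586, and 8.033 and 7.990. Those values lay within or below the Dlk1+ Sca1+ ranges (10.810 to 12.281, 8.661 to 9.393 and 8.101 to 8.183). The higher summed means of these lists thus rest on the array of littermate 1. Without the Dlk1- Sca1+ array of littermate 1 the G2/M median was 0.29, and the part of these markers in the result was not tested otherwise.

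Top2a, the topoisomerase that untangles sister chromatids, had log2 values of 7.85, 8.10 and 8.06 in papillary, 6.90, 6.76 and 6.56 in reticular, 6.45, 6.60 and 6.62 in Dlk1+ Sca1+ and 7.11, 6.96 and 7.16 in Dlk1- Sca1+ arrays. Dlk1- Sca1+ arrays thus lay above both Dlk1+ groups and below papillary arrays. It was the 1 G2/M member called between Dlk1- Sca1+ and reticular cells, higher by 0.34 ± 0.10 (limma adjusted p = 0.0377, where 9.36% of all genes were higher and 8.80% lower). That call was lost without the Dlk1- Sca1+ array of littermate 1 or 3 or the reticular array of littermate 2 or 3 (adjusted p = 0.079 to 0.154). Dimmer probe sets of Top2a gave 0.003 and -0.110 here, without a call in a limma fit over all probe sets (adjusted p = 0.989 and 0.33).

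In the same comparison 1 S phase member was called higher and 2 lower, where 9.36% and 8.80% of all genes were. The other 22 were not called. Rrm2 was higher in Dlk1- Sca1+ cells by 0.50 ± 0.13 (limma adjusted p = 0.0191), a call lost without the Dlk1- Sca1+ array of littermate 3 (adjusted p = 0.075) or the reticular array of littermate 2 (adjusted p = 0.0641). Ung was lower by 0.61 on the log2 scale (difference -0.61 ± 0.16, adjusted p = 0.0167, and 0.0713 without the reticular array of littermate 2). Dtl had log2 values of 8.42, 8.64 and 8.62 in reticular and 8.34, 7.99 and 8.16 in Dlk1- Sca1+ arrays, which did not overlap. Its difference was -0.40 ± 0.12 (adjusted p = 0.0351), lost without the Dlk1- Sca1+ or reticular array of littermate 2 or 3 (adjusted p = 0.087 to 0.129). The medians of this comparison were 0.01 for G2/M and 0.00 for S phase, at the level of all genes (-0.01).

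The members closest to the threshold were of S phase, apart from Cenpe. Against reticular cells, Chaf1b, Pola1 and Mcm6 lay just inside (adjusted p = 0.0314, 0.0342 and 0.0445) and Hells, Blm and Dtl just outside (0.0539, 0.111 and 0.176). Dim probe sets of Hells (mean log2 levels 4.55 and 3.95) differed there by 0.56 and 0.28. Both were called higher in a limma fit over all probe sets (adjusted p = 0.000399 and 0.00723). Against Dlk1+ Sca1+ cells, Cenpe, Mcm4 and Pcna lay just inside (0.00625, 0.00794 and 0.0448) and Blm, Ung and Tipin just outside (0.0829, 0.0936 and 0.12). Against Dlk1- Sca1+ cells, Mcm2, Rrm2 and Tipin lay just inside (0.0165, 0.0231 and 0.0429) and Cenpe, Mcm6 and Pcna just outside (0.0525, 0.136 and 0.142). With the replicate block, Cdc45 (adjusted p = 0.0494) and Hells (0.0364) passed against reticular cells and Tipin (0.0312) against Dlk1+ Sca1+ cells. The Tipin call against Dlk1- Sca1+ cells was lost without any 1 of 7 arrays (adjusted p up to 0.162), among them all 3 papillary arrays.

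More than 1 probe set read 32 of the members, of which the brightest was used. Over 96 pairs of such a member and a papillary comparison, all probe sets gave the same call in 51, and in 45 some did not pass. In 0 pairs were 2 probe sets called in opposite directions. For Tyms 1 probe set of 5 was called against reticular cells, and for Top2a 1 of 3. The means over probe sets gave smaller G2/M medians of 0.74, 1.00 and 0.76.

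Cell cycle genes outside the list were counted in the same way, with papillary cells set against reticular, then Dlk1+ Sca1+, then Dlk1- Sca1+ cells. The shares of all genes were 13.9%, 14.1% and 13.1% higher and 13.6%, 13.9% and 13.3% lower. Of 46 other replication genes, 24, 25 and 23 were higher and 2, 2 and 2 lower (Orc1, of the origin recognition complex, and Timeless), with medians of 0.33, 0.33 and 0.30. Of 58 other mitosis genes, 39, 45 and 38 were higher and 0, 1 and 2 lower (Cks1b against both Sca1+ populations and Anp32e against Dlk1- Sca1+ cells), with medians of 0.64, 0.82 and 0.65. The largest were Pbk, a mitotic kinase (1.84, 2.28 and 1.61), Knl1, a kinetochore scaffold (1.58, 2.22 and 1.61), Kif20b, a motor of cytokinesis (1.59, 2.04 and 1.67), and Spc25, a kinetochore subunit (1.56, 1.71 and 1.37). Among replication genes, Brca1, of DNA repair, differed by 1.12, 1.31 and 1.06, Lig1, the ligase that joins new fragments, by 0.84, 1.13 and 0.76, and Tk1, thymidine kinase, by 0.99, 1.07 and 0.98. Of the mitosis genes 8 were lower in Dlk1+ Sca1+ than in reticular cells and 0 higher, where 4.37% and 4.06% of all genes were. Of the same 58 genes, 10 were higher in Dlk1- Sca1+ than in Dlk1+ Sca1+ cells and 0 lower, where 3.23% and 4.13% of all genes were.

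Timeless, a fork protection protein that works with Tipin, was the replication gene with the largest called difference, and it was lower in papillary cells. It had log2 values of 7.23, 7.36 and 7.61 in papillary, 8.05, 8.03 and 8.14 in reticular, 8.56, 8.70 and 8.56 in Dlk1+ Sca1+ and 8.97, 9.07 and 9.03 in Dlk1- Sca1+ arrays. The 4 groups did not overlap at any step. The papillary difference was -0.67 ± 0.09, -1.21 ± 0.09 and -1.62 ± 0.09 (limma adjusted p = 0.000111, 4.58e-07 and 3.18e-08). Taken as the mean of its probe sets, Timeless differed by -0.04 between papillary and reticular cells (adjusted p = 0.823), so this step depends on the probe set used.

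The E2F family and its partners changed in both directions. Higher in papillary cells in all 3 comparisons were the activator E2f2 (0.98, 1.27 and 0.81), the repressor E2f7 (0.59, 1.00 and 0.82), Mybl2 of the MYB-MuvB complex (0.77, 1.00 and 0.65), Foxm1, an activator of mitotic genes (0.62, 0.57 and 0.54), and Mycn (0.49, 0.73 and 0.54). The E2f7 call against reticular cells was lost without the papillary array of littermate 3 (adjusted p = 0.0806) or the reticular array of littermate 1 (0.0793) or 2 (0.0825). The activator E2f3 had lower papillary levels than both Sca1+ populations (-0.60 against Dlk1+ Sca1+ and -0.63 against Dlk1- Sca1+ cells). Of 16 such factors 7, 7 and 7 were higher (13.9%, 14.1% and 13.1% of all genes) and 1, 2 and 1 lower (13.6%, 13.9% and 13.3%). The calls of Mycn against reticular and Dlk1- Sca1+ cells (adjusted p = 0.0885 and 0.167) and of Foxm1 against Dlk1- Sca1+ cells (0.0651) were lost without all arrays of littermate 3.

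Of the genes that set the entry into S phase, Cdk4, the partner of D cyclins, was higher in papillary cells in all 3 comparisons (0.29, 0.41 and 0.52), as was Skp2, which marks Cdkn1b for destruction (0.50, 0.72 and 0.50). The Cdk4 call against reticular cells was lost without the papillary array of littermate 2 (adjusted p = 0.0553). Ccnd1, a D cyclin, did not follow the G2/M genes. Its papillary and Dlk1- Sca1+ levels were alike in mean (11.10 ± 0.08 and 11.09 ± 0.07, SD), and Dlk1+ Sca1+ cells were lower than papillary cells by 0.54 ± 0.09 (limma adjusted p = 0.000551). Ccnd3, another D cyclin, was lower in papillary than in reticular cells (-0.55 ± 0.12, adjusted p = 0.00382, and 0.0991 without all arrays of littermate 2) and lower still in Dlk1- Sca1+ cells (-0.84 ± 0.12 from reticular, adjusted p = 0.000322). Against Dlk1+ Sca1+ cells the papillary difference of Ccnd3 was -0.39 ± 0.12 (adjusted p = 0.0284), a call lost without the Dlk1+ Sca1+ array of littermate 1 (0.121) or the papillary array of littermate 2 (0.0955) or 3 (0.103).

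Of 13 CDK inhibitors and pocket proteins, 3, 5 and 4 were higher in papillary cells (13.9%, 14.1% and 13.1% of all genes) and 3, 3 and 4 lower (13.6%, 13.9% and 13.3%). Cdkn1a, the inhibitor p21, had log2 values of 9.94, 10.18 and 10.26 in papillary, 10.68, 10.77 and 10.94 in reticular, 10.88, 10.86 and 10.71 in Dlk1+ Sca1+ and 11.31, 11.22 and 11.09 in Dlk1- Sca1+ arrays. It was lower in papillary cells by 0.67, 0.69 and 1.08 on the log2 scale (differences -0.67 ± 0.10, -0.69 ± 0.10 and -1.08 ± 0.10, limma adjusted p = 0.000247, 0.000175 and 3.24e-06). The imprinted inhibitor Cdkn1c differed by -1.36, -1.48 and -1.56, with papillary arrays at 10.29 to 10.33 and all others at 11.56 to 11.90. Both inhibitors thus had papillary values below every other array.

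Others were higher in papillary cells. Cdkn2c, an inhibitor of Cdk4 and Cdk6, had log2 values of 8.55, 8.35 and 8.56 in papillary arrays and 7.12 to 8.24 elsewhere, and differed by 1.04 ± 0.13, 0.97 ± 0.13 and 0.44 ± 0.13 (limma adjusted p = 4.64e-05, 8.10e-05 and 0.0237). The call against Dlk1- Sca1+ cells was lost without the papillary array of littermate 1 or 3 or the Dlk1- Sca1+ array of littermate 1 or 2 (adjusted p = 0.0732 to 0.0876). Rbl1, the pocket protein p107, had log2 values of 6.40, 6.47 and 6.70 in papillary arrays and 5.52 to 5.99 elsewhere, and differed by 0.83 ± 0.13, 0.83 ± 0.13 and 0.80 ± 0.13 (adjusted p = 0.000253, 0.000232 and 0.00034). Papillary values lay above all others for both genes.

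Rb1, the retinoblastoma protein, was lowest in papillary cells, with log2 values of 5.70, 5.76 and 5.74 against 5.96 to 7.03 in the other arrays. It differed by -0.49 ± 0.16 from reticular and -1.05 ± 0.16 from Dlk1- Sca1+ cells (limma adjusted p = 0.0405 and 0.000295), and by -0.31 from Dlk1+ Sca1+ cells without a call. The call against reticular cells was lost without any 1 of the 6 arrays compared (adjusted p up to 0.108) and with arrays centred on their medians (adjusted p = 0.0778). Further calls were those of Cdkn1b (0.44 and 0.63 against the 2 Sca1+ populations), Cdkn2d (0.58 and 0.49 against the same), Cdkn2b (0.79 against reticular and 0.59 against Dlk1+ Sca1+ cells) and the growth inhibitor Btg2 (-0.38 and -0.35 against the 2 Sca1+ populations). The last of these was lost without the papillary array of littermate 2 (adjusted p = 0.0504).

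**Figure D5:**
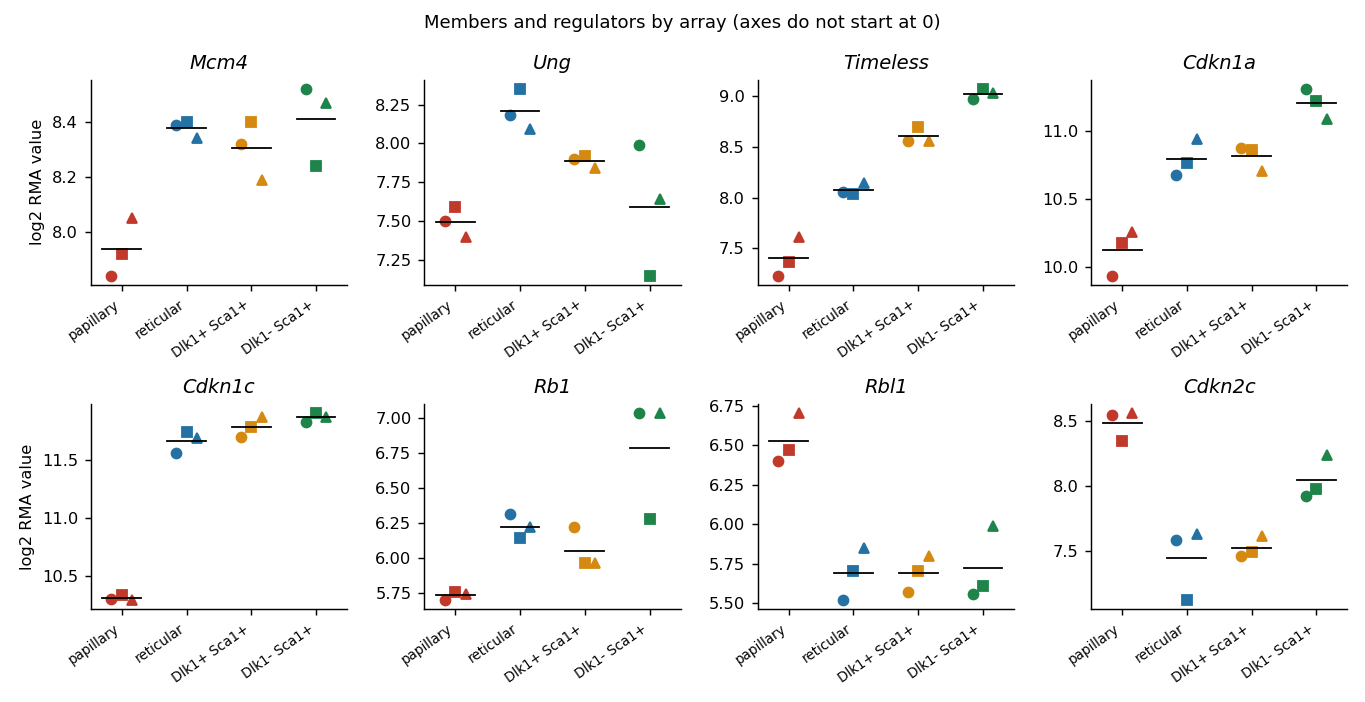
Log2 RMA values by array for 8 genes: the S phase members Mcm4 and Ung, the fork gene Timeless and 5 inhibitors or pocket proteins, by population, with symbols for the 3 littermates (circle 1, square 2, triangle 3) and lines for means. Axes do not start at 0. Papillary arrays are lowest for Mcm4, Timeless, Cdkn1a, Cdkn1c and Rb1 and highest for Rbl1 and Cdkn2c.

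Markers of other cell types were summed on each array. The summed log2 level of 8 endothelial genes was 9.03 to 9.19 in papillary arrays and 9.24 to 10.18 in the others, and that of 8 immune genes was 8.68 to 8.85 against 8.98 to 9.23. The level of 5 mural genes was 8.55 to 8.76 against 9.78 to 11.34, that of 5 melanocyte and Schwann cell genes 8.27 to 8.41 against 8.53 to 10.56, and that of 3 erythroid genes 8.14 to 8.32 against 8.49 to 11.00. All 5 lists were thus lower in every papillary array than in the other 9. The lists of 6 mast cell genes (7.93 to 8.14 against 7.99 to 9.25) and 7 skeletal muscle genes (8.43 to 8.52 against 8.18 to 9.35) overlapped. The muscle level in papillary arrays was above that of all Dlk1- Sca1+ arrays (8.18 to 8.38) and below that of the other 6. Single genes of these lists were called higher in papillary cells. Chrna1, a muscle acetylcholine receptor subunit, was higher in all 3 comparisons (0.96, 0.98 and 0.85), Des, the muscle filament desmin, against the Dlk1+ Sca1+ and Dlk1- Sca1+ populations (0.52 and 0.59), and Kit, which encodes CD117, against reticular cells (0.48). No marker is at 0 on an array, where background gives every probe set a level.

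The list of 9 keratinocyte and epithelial genes, of the epidermis, was at 11.92, 10.93 and 9.86 in the papillary arrays of littermates 1, 2 and 3 and ran from 10.03 to 13.65 in the others. The papillary array with the highest keratinocyte level had the lowest G2/M level (0.61), and the 1 with the lowest had the highest (0.97). In reticular cells the array with the highest keratinocyte level (littermate 1, 12.21) also had the lowest G2/M level (-0.24). The order did not hold in the Sca1+ populations. In Dlk1+ Sca1+ cells the highest keratinocyte level was in littermate 2 (12.28) and the lowest G2/M level in littermate 1 (-0.73). In Dlk1- Sca1+ cells the array with the lowest keratinocyte level (littermate 2, 11.10) had the lowest G2/M level (-0.23). The part of the RNA of other cells in the differences between populations was not tested.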

How the data were processed

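Transcripts of 4 sorted populations from 3 littermates were measured on 12 Affymetrix arrays. The authors deposited log2 values. The submitters' processing notes name RMA and the affy package, with no version. RMA subtracts background, equalizes the arrays' distributions and summarizes probes, which narrows differences of dim genes. Of 45141 probe sets, 104 controls were left out, 28898 had 1 gene symbol, 551 had several and 15588 were unnamed here. Of the named ones 28689 matched a RefSeq gene by Entrez number, and 0 symbols changed. The brightest probe set on average stood for its gene.

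A linear model per gene was fitted over the 12 arrays with limma 3.58.1 in R 4.3.3, with a coefficient for each population (8 residual and 4.475 prior degrees of freedom). The 6 contrasts were adjusted by Benjamini-Hochberg over 17097 genes, and genes were called at an adjusted p under 0.05. Array medians were 6.67 to 6.81, and precision is limited by 3 arrays per population. Every member could be named, and values by array were given for the 5 largest and 2 smallest papillary differences per phase, members lower in papillary cells, up to 2 members per other contrast and direction, and called regulators. The members and lists were chosen with earlier results of these data known. Per the labels the samples came from 3 littermates and every population has biological replicates 1 to 3, and equal numbers were taken as the same littermate. Their deviations from population means correlated at a mean r of 0.266 over 18 pairs (0.086 to 0.432, 17 above 0.1), across genes, which are not independent. Alternatives were another summary of probe sets, centring, repeated quantile normalization, a filter at a mean of 6, a trend, the replicate block, only the arrays compared, and leaving out arrays or littermates. RefSeq promoter windows (GRCm38.p6) were searched as text.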

Additional observations from a re-analysis of the deposited data

How the results depend on the processing

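The papillary medians and phase levels kept their direction under the alternatives run, and the papillary counts of members called higher stayed within 1.5 times of the values given. The medians of Dlk1- Sca1+ minus reticular cells, near 0, took both signs when arrays were left out (G2/M -0.06 to 0.09, S phase -0.02 to 0.04). Taking the mean of probe sets gave median papillary differences of 0.363, 0.393 and 0.353 for S phase and 0.740, 0.995 and 0.762 for G2/M (against reticular, Dlk1+ Sca1+ and Dlk1- Sca1+ cells), phase levels of papillary minus other cells of 0.380 (S phase), 0.856 (G2/M) and 0.476 (their difference), and, outside papillary cells, 5 G2/M members lower in Dlk1+ Sca1+ than reticular cells, 0 higher in Dlk1- Sca1+ than reticular cells and 1 S phase member higher in Dlk1- Sca1+ than Dlk1+ Sca1+ cells. Means in place of medians over S phase members gave 0.387, 0.490 and 0.389, and without genes of a mean under 6 the medians against the Sca1+ populations were 0.485 and 0.363, with an S phase level of 0.381. With only the 6 arrays compared, 2 S phase members were lower in papillary than Dlk1+ Sca1+ cells, 0 lower in Dlk1- Sca1+ than reticular cells and 0 higher than in Dlk1+ Sca1+ cells, and 0 and 1 G2/M members were higher in Dlk1- Sca1+ than in reticular and Dlk1+ Sca1+ cells. Repeated quantile normalization gave 1 S phase member higher in Dlk1+ Sca1+ than reticular cells and 1 higher in Dlk1- Sca1+ than Dlk1+ Sca1+ cells, centring gave 2 higher in Dlk1- Sca1+ than reticular cells, and a trend gave 0 G2/M members there. With the replicate block, 1 S phase member was higher and 6 G2/M members lower in Dlk1+ Sca1+ than reticular cells, 6 G2/M members were higher in Dlk1- Sca1+ than Dlk1+ Sca1+ cells, and no call of a member was lost.

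Leaving out 1 array or 1 littermate gave ranges as follows. S phase members lower in papillary cells numbered 1 to 3, 0 to 2 and 0 to 1 against the 3 others in the order above. Between Dlk1- Sca1+ and reticular cells 0 to 2 S phase members were higher and 0 to 3 lower, and 0 to 1 G2/M members were higher and 0 to 1 lower. In Dlk1- Sca1+ against Dlk1+ Sca1+ cells 0 to 2 S phase and 0 to 4 G2/M members were higher, and 0 to 5 G2/M members were lower in Dlk1+ Sca1+ than reticular cells. The medians ran from 0.390 to 0.478, 0.490 to 0.612 and 0.380 to 0.495 for S phase, and from 0.945 to 1.215, 1.252 to 1.482 and 0.910 to 1.145 for G2/M. Of these, 2 S phase members were lower in papillary than Dlk1+ Sca1+ cells without the Dlk1- Sca1+ array of littermate 1 or 2, and 3 were lower than in reticular cells without the papillary array of littermate 3. The cause of these changes was not tested. With equal numbers taken as the same littermate, and apart from the calls named in the text, the pairing added 1, Hells lower in Dlk1- Sca1+ than reticular cells (adjusted p = 0.0417 in limma with the replicate block). Leaving out all arrays of littermate 3 ended 33 calls of single members over the 6 contrasts, against 24 for littermate 2 and 15 for littermate 1. Of the members, 3 of S phase (Cdc6, Hells and Exo1) and 3 of G2/M (Bub1, Kif23 and Anln) have a mean log2 level under 6.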
